A study of Mus musculus with 6 samples.

Results

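The miR-17-92 cluster is a group of microRNAs (miRNAs) cut from a single primary transcript, and its 6 mature strands were followed in mouse skin with and without hair loss. The members were taken by probe name as the unstarred strands mmu-miR-17, mmu-miR-18a, mmu-miR-19a, mmu-miR-20a, mmu-miR-19b and mmu-miR-92a, which are 6 of 707 mouse miRNA probes. All samples were whole skin from the back of C3H/HeJ mice. Animals of this inbred strain can lose hair spontaneously through alopecia areata (AA), an autoimmune attack on the hair follicle, and all of them carry a defective allele of the lipopolysaccharide receptor gene Tlr4. The AA group held 3 arrays of skin with hair loss from mice with spontaneous AA, and the control group held 3 arrays of haired skin from mice without the disease. The labels name no treatment, and ages were not given in the labels used here. The design note speaks of several samples from each mouse and the labels tie no array to a mouse, so arrays of a group may share an animal. The SDs and p-values then measure the spread between these 6 arrays alone, and some of it may be technical.

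The primary transcript of the cluster is made by RNA polymerase II and is induced by the growth regulators Myc and E2F. Its hairpins are cut out by Drosha and Dicer, and the mature strands silence mRNAs matched to their seed (bases 2 to 8), among them that of the pro-apoptotic Bcl2l11. In mice, excess of the cluster in lymphocytes causes lymphoproliferation and autoimmunity, and in human skin miR-19b and miR-20a have been linked to keratinocyte behaviour in wounds. In whole skin, fewer cells that make a miRNA and less of it per cell cannot be told apart.

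The 6 sequences are shown because they set which probes can be told apart. The array targets of all 6 members matched RefSeq mature strands exactly (GRCm38.p6), and each is written 5′ to 3′ with its seed in capitals.
miR-17: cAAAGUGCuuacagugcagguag
miR-20a: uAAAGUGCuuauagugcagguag
miR-18a: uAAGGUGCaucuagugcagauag
miR-19a: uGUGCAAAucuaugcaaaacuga
miR-19b: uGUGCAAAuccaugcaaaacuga
miR-92a: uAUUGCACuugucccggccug
The members fall into 4 seeds. miR-17 and miR-20a share AAAGUGC, miR-19a and miR-19b share GUGCAAA, and miR-18a (AAGGUGC) and miR-92a (AUUGCAC) each stand alone. With positions counted from the 5′ end, miR-19b differs from miR-19a by 1 substitution, U11C. miR-20a differs from miR-17 by 2, C1U and C12U.

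On the plus strand of chromosome 14 the mature strands span 813 bases, from miR-17 at chr14:115043684-115043706 to miR-92a at chr14:115044476-115044496. Between them lie miR-18a at chr14:115043867-115043889, miR-19a at chr14:115044048-115044070, miR-20a at chr14:115044183-115044205 and miR-19b at chr14:115044358-115044380. The mature sequences of miR-19b and miR-92a are also encoded on chromosome X, at chrX:52741991-52742013 and chrX:52741854-52741874, so these 2 probes cannot tell the cluster from its X-linked paralog.

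**Figure D1:**
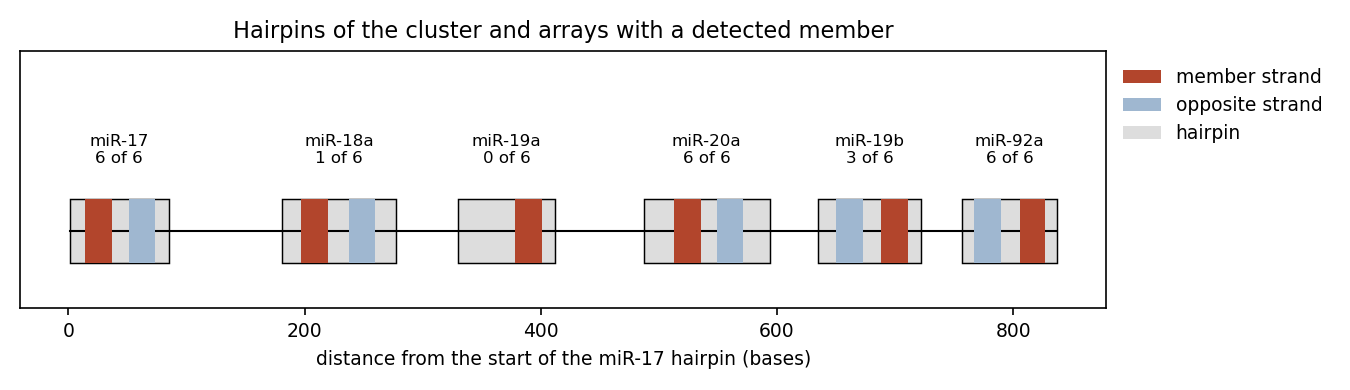
Hairpins of the cluster along chromosome 14, drawn to scale by distance in bases from the start of the miR-17 hairpin, with the member strand and the opposite strand as annotated in RefSeq. The count above each hairpin is the number of the 6 arrays on which the member's probe was detected: 6 for miR-17, miR-20a and miR-92a, 3 for miR-19b, 1 for miR-18a and 0 for miR-19a.

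Each probe was printed as 5 spots per array, and the deposited value is the raw intensity of a spot. A probe counted as detected where the mean of its spots was brighter than 95% of that array's 145 empty control spots (their 95th percentile), and 97 to 202 of the 707 miRNA probes met this per array. Arrays differed in signal. Over the 88 probes that every array detected, the median probe was 1.46 to 3.33 times as bright as the median empty spot on the AA arrays and 4.20 to 16.9 times on the unaffected arrays. On unaffected replicate 1 the median raw intensity was 168 for miRNA spots and 274 for empty spots, and on AA replicate 2 it was 399 and 490.5, so detection was strict on both. On unaffected replicate 2 the medians were 166 and 168. The skin label was checked against keratinocyte miRNAs, and 7 of 7 were tested, with miR-203 and miR-205 detected on all 6 arrays. No pair of arrays held identical values.

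Cluster members were unevenly visible in the skin. miR-17, miR-20a and miR-92a were detected on 6 of 6 arrays, miR-19b on 3, miR-18a on 1 and miR-19a on 0. The 5 spots of a member varied by a median coefficient of variation of 7.74%, from 1.74% to 24.1%, and the highest value was that of miR-92a on unaffected replicate 1, where its spots ran from 1961 to 3406.

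mmu-miR-17, whose targets include regulators of the cell cycle, had raw intensities of 482, 751 and 668 on the AA arrays (replicates 1 to 3, the order used throughout) and of 582, 728 and 1545 on the unaffected arrays. All of its 5 spots lay above the detection threshold on every array. mmu-miR-20a, its seed partner, had raw intensities of 390, 854 and 649 in AA and of 361, 982 and 1727 in unaffected skin. Unaffected replicate 3 was the brightest array for both, and on unaffected replicate 1 miR-20a was only 1.05 times the threshold. The median empty spot of AA replicate 3 was 530. On that array miR-17 was 1.17 times the threshold and miR-20a 1.13 times, with 4 of 5 spots of miR-20a above it.

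mmu-miR-92a, the last member of the transcript, had raw intensities of 1237, 2263 and 760 in AA and of 2676, 1198 and 2189 in unaffected skin. Its brightest array was unaffected replicate 1 and its dimmest AA replicate 3, where it was 1.33 times the threshold.

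mmu-miR-19b, which belongs to the oncogenic miR-19 seed family, had raw intensities of 232, 397 and 599 in AA and of 301, 237 and 732 in unaffected skin. In AA it passed the threshold on replicate 3 alone, at 1.05 times it with 3 of 5 spots above. In unaffected skin it passed on replicates 2 and 3 with 5 of 5 spots each. On unaffected replicate 1 it was 0.876 times the threshold but 1.79 times the median miRNA spot. On the 3 AA arrays it was 0.995 to 1.08 times the median miRNA spot, so in AA skin its signal was close to that of the many unlit probes.

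miR-18a and miR-19a gave little or no signal. mmu-miR-18a passed on unaffected replicate 3 (raw intensity 308, 1.35 times the threshold, 5 of 5 spots) and on no other array. mmu-miR-19a was 0.871 to 1.01 times the median miRNA spot on the 6 arrays and passed on none. The miR-19a and miR-19b targets differ by a single base, and the miR-19a probe stayed at that level on unaffected replicate 3, where miR-19b was 3.79 times the median miRNA spot. No fold change is given for miR-18a: its unaffected mean in normalized log2 intensity (7.25) lay below 7.69, the mean over the AA arrays of each array's lowest detected signal. For miR-19a no array of either group passed the detection threshold.

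**Figure D2:**
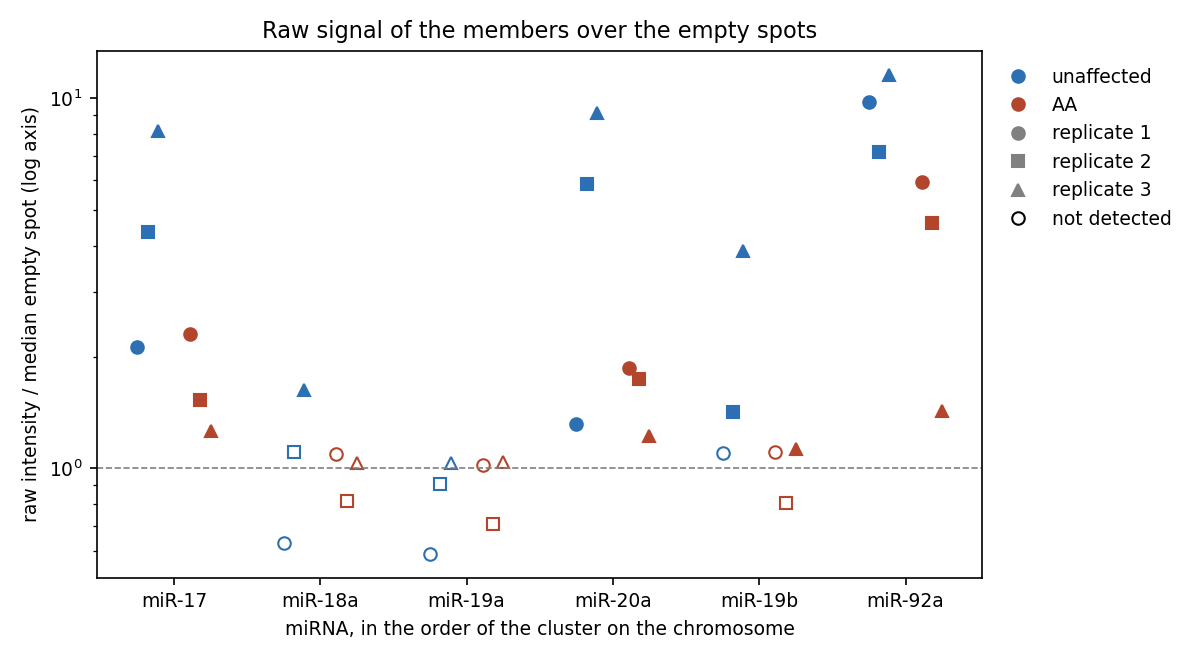
Raw intensity of each member divided by the median empty spot of the same array, on a log axis; each point is 1 array (mean of 5 spots), filled where detected, and the dashed line marks the empty-spot level. miR-92a is the member whose 3 AA arrays (1.43 to 5.92) all lie below its 3 unaffected arrays (7.15 to 11.6), while miR-19a stays between 0.588 and 1.04.

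Relative to the empty spots, the AA arrays of miR-92a all lay below the unaffected arrays, at 5.92, 4.61 and 1.43 against 9.77, 7.15 and 11.6. The same separation with lower values in AA was found for 50 of the 157 tested miRNAs (31.8%), and the reverse for 0%. The groups overlapped on that scale for miR-17, miR-20a and miR-19b. Relative to the median miRNA spot, all 4 of these members were lower on every AA array, as were 107 of 157 tested miRNAs (68.2%). Signal over the empty spots also differed between groups over the probes detected on all arrays, as given above. Its part in these separations was not tested, and the comparison between groups therefore rests on values normalized between arrays.

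To ask whether the cluster differed between AA and unaffected skin, raw intensities were background-corrected, put on the log2 scale and quantile-normalized between arrays, and the 157 miRNAs detected on at least 3 of 6 arrays were tested with limma. Of the 6 members, 4 entered the test, and 0 were higher and 0 lower in AA at a limma adjusted p under 0.05, where 0% of all tested miRNAs passed. At an unadjusted p under 0.05 the count of members was again 0, where 12 of 157 miRNAs passed (7.64%). The groups overlapped for each of the 4 members, and failed to overlap for 11.5% of all tested miRNAs. Of the 4 members, 2 had higher and 2 lower means in AA. Their median log2 difference (AA minus unaffected) was -0.027, beside -0.039 over all 157.

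**Figure D3:**
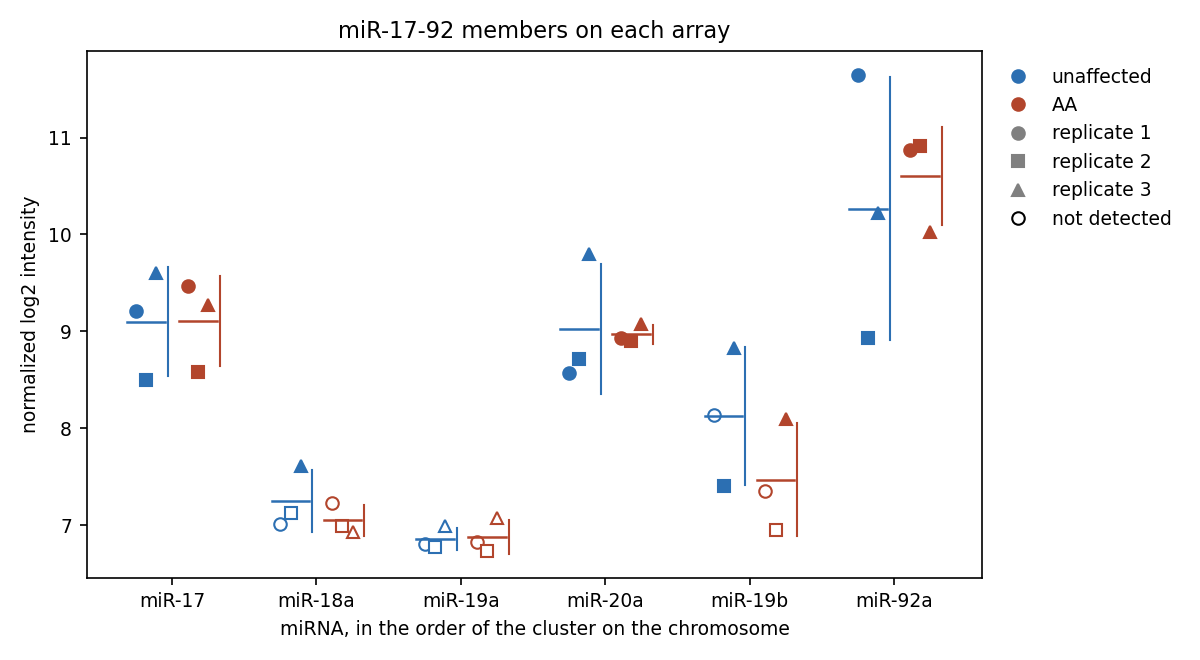
Normalized log2 intensity of each member on each array, filled where detected, with the group mean (horizontal line) and SD (vertical line, n = 3). AA and unaffected arrays overlap for all 6 members; the unaffected arrays of miR-92a run from 8.93 to 11.65.

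In normalized log2 intensity, mmu-miR-17 measured 9.46, 8.58 and 9.27 on the AA arrays against 9.20, 8.50 and 9.60 on the unaffected arrays. Both groups thus held 2 arrays above 9 and 1 below. The means were 9.11 ± 0.46 and 9.10 ± 0.56 (SD, n = 3), a log2 difference of 0.0061 (SE 0.43, limma adjusted p = 0.989). The 95% confidence interval, -0.95 to 0.97, spans AA levels from 0.516 to 1.95 times those of unaffected skin. With 3 arrays a group, a change within that range in either direction is not excluded, and the interval is not a limit of detection. Scaling each array to the 75th percentile of all probes gave -1.21 (limma unadjusted p = 0.0250, adjusted 0.0924), in a setting where 62 of the 157 miRNAs (39.5%) were lower at an unadjusted p under 0.05 and their median was -0.95.

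mmu-miR-20a measured 8.93, 8.90 and 9.08 on the AA arrays against 8.57, 8.71 and 9.80 on the unaffected arrays. On this normalized scale the AA arrays lay close together (8.97 ± 0.095), inside the range of the unaffected arrays (9.03 ± 0.67). Relative to the median empty spot they stood at 1.87, 1.74 and 1.22. AA replicate 3 was thus the lowest AA array over background and the highest after normalization. The log2 difference was -0.059 (SE 0.42, 95% interval -0.997 to 0.878, limma adjusted p = 0.981). It rested on unaffected replicate 3, and without that array the difference was 0.36.

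mmu-miR-19b measured 7.35, 6.95 and 8.10 on the AA arrays against 8.14, 7.40 and 8.83 on the unaffected arrays. The highest AA array lay above the lowest unaffected array, so the groups overlapped. The means of 7.47 ± 0.58 and 8.12 ± 0.71 gave a log2 difference of -0.66 (SE 0.48, 95% interval -1.72 to 0.40, limma adjusted p = 0.712, unadjusted 0.198). This was the smallest p of the 4 members. The offset of the background correction compresses differences of dim probes such as this. With the empty-spot median subtracted in place of that correction, the difference was -1.50 (SE 1.04, limma adjusted p = 0.710). In that setting values under 10 were set to 10. On AA replicate 2 the raw intensity of miR-19b (397) lay below the median empty spot (490.5), so the floor enters this difference. With no background correction the difference was -0.46. Leaving out AA replicate 3, the only AA array on which miR-19b was detected, gave -1.10. Leaving out unaffected replicate 3 gave -0.29. Scaling each array to the 75th percentile of the 88 probes that every array detected turned the sign, to 0.47, beside a median of 0.53 over the 157 tested miRNAs in that setting. Removal of the trend of log2 intensity on target GC content, fitted per array, gave -0.29.

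mmu-miR-92a measured 10.87, 10.91 and 10.02 on the AA arrays against 11.65, 8.93 and 10.22 on the unaffected arrays. Unaffected replicates 1 and 2 were its highest and lowest arrays, and the AA arrays lay between them. Its means were 10.60 ± 0.50 and 10.27 ± 1.36, a log2 difference of 0.34 (SE 0.62, 95% interval -1.05 to 1.72, limma adjusted p = 0.884). The direction depended on single arrays. Without unaffected replicate 1 the difference was 1.02 (limma unadjusted p = 0.0478, adjusted 0.326), in a fit where 8 of 157 miRNAs (5.1%) were higher and 16 (10.2%) lower at an unadjusted p under 0.05, and without unaffected replicate 2 it was -0.34 (limma adjusted p = 0.943).

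The tested members spread across arrays by different amounts. The range over 6 arrays was 1.11 for miR-17, 1.23 for miR-20a, 1.88 for miR-19b and 2.72 for miR-92a, and the median over all 157 tested miRNAs was 1.45. The range of miR-92a was at the 91.7th percentile of the tested miRNAs and that of miR-17 at the 24.8th. In AA the median SD of the members (0.48) was close to that of all tested miRNAs (0.46). In unaffected skin it was 0.69, beside 0.44.

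Deviations of the tested members from their own means agreed in sign on some arrays and not on others. On unaffected replicate 2 all 4 lay below their means, at -0.61 for miR-17, -0.29 for miR-20a, -0.39 for miR-19b and -1.50 for miR-92a. On unaffected replicate 3, the log2 deviations of miR-17, miR-20a and miR-19b from their own 6-array means were 0.50, 0.80 and 1.04, while that of miR-92a was -0.21. On unaffected replicate 1, miR-92a deviated by 1.21, miR-19b by 0.35, miR-17 by 0.10 and miR-20a by -0.43. On AA replicate 1, miR-17 and miR-92a deviated by 0.36 and 0.44, and miR-20a and miR-19b by -0.068 and -0.44. On AA replicate 2, miR-92a deviated by 0.48, and miR-17, miR-20a and miR-19b by -0.52, -0.10 and -0.85. On AA replicate 3, miR-92a deviated by -0.41, and the same 3 by 0.17, 0.078 and 0.30. As a description over the 6 arrays, which share normalization, Pearson correlations were 0.58 between miR-17 and miR-20a, 0.71 between miR-17 and miR-19b and 0.63 between miR-20a and miR-19b. Those of miR-92a with miR-17, miR-20a and miR-19b were 0.36, -0.18 and 0.022. Spearman (rank) correlations of the first pairs, in the same order, were 0.77, 0.49 and 0.26, so the order of the pairs depended on the measure. For miR-92a they were 0.086, -0.37 and -0.086. miR-92a has the highest target GC content of the members, 57.1% against 34.8% to 47.8% for the other 5. Per array, log2 intensity changed with target GC content by a slope that ran from -0.36 to -0.077 per 10 percentage points on the unaffected arrays and from 0.0068 to 0.17 on the AA arrays. Its part in these patterns was not tested. With the trend removed the log2 differences were 0.12 for miR-17, 0.31 for miR-20a and 0.18 for miR-92a.

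**Figure D4:**
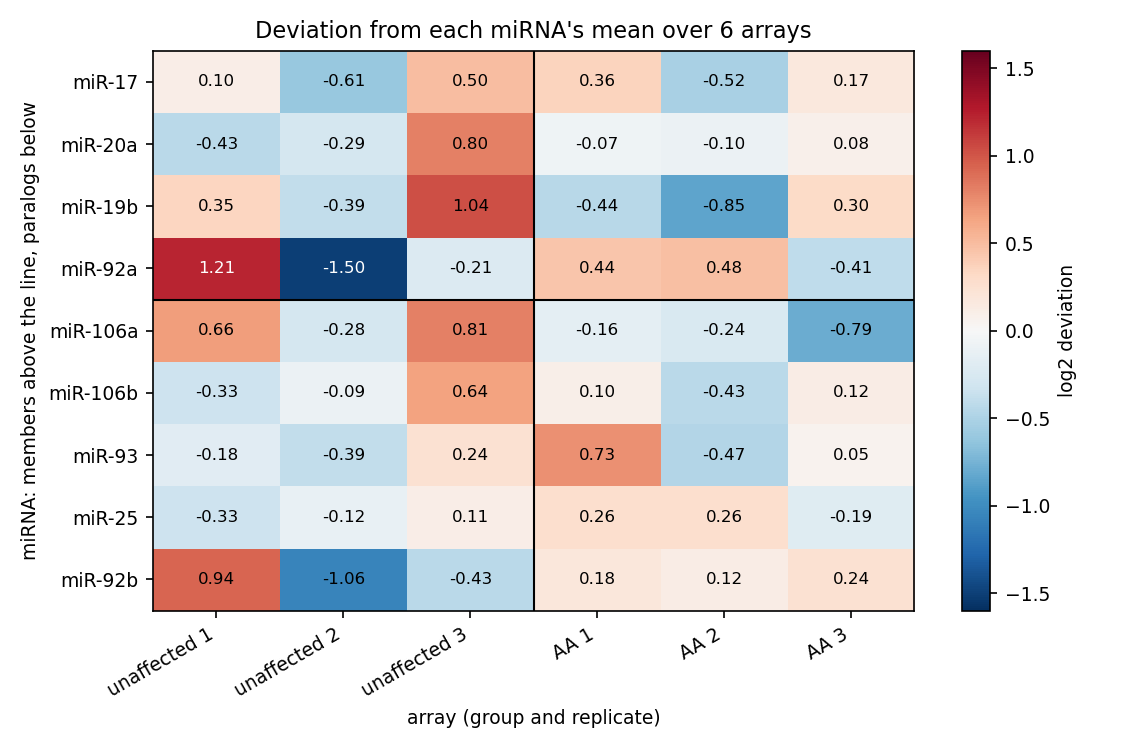
Normalized log2 intensity of the tested members (above the line) and tested paralogs (below it) on each array, as the deviation from that miRNA's own mean over the 6 arrays. miR-92a and miR-92b are high on unaffected replicate 1 (1.21 and 0.94) and low on unaffected replicate 2 (-1.50 and -1.06), and the miR-17 seed members of both sets are above their means on unaffected replicate 3.

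The cluster has paralogs on chromosome X (miR-106a, miR-18b, miR-20b and miR-363, beside the copies of miR-19b and miR-92a) and chromosome 5 (miR-106b, miR-93 and miR-25), and miR-92b, miR-32 and miR-367 share the miR-92a seed. Of these 10 paralogs and seed relatives, 6 were detected on at least 1 array and 5 were tested. Of the 5, 0 were higher and 0 lower in AA by limma (adjusted p = 0.588 to 0.952), 0 passed at an unadjusted p under 0.05, and the groups overlapped for each. Over all 157 tested miRNAs the shares past these thresholds were 0% and 7.64%, and the groups failed to overlap for 11.5%.

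miR-106a is the X-linked copy nearest to miR-17, from which it differs by U10A, and its sequence is shown for that reason.
miR-106a: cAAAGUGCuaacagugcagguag
It measured 7.60, 7.52 and 6.97 on the AA arrays against 8.42, 7.48 and 8.57 on the unaffected arrays, and was detected on 1 AA and 2 unaffected arrays. Unaffected replicate 2 fell among the AA arrays. The log2 difference was -0.79 (SE 0.42, 95% interval -1.73 to 0.15, limma adjusted p = 0.588). miR-20b, from the same X-linked transcript, was detected on unaffected replicates 2 and 3 and on no AA array, and did not enter the test. Its unaffected mean (7.56) was below the same mean of lowest detected signals (7.69), so no fold is given. miR-18b and miR-363 were detected on no array.

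The chromosome 5 cluster was visible throughout. miR-93, with the miR-17 seed, and miR-25, with the miR-92a seed, were detected on all 6 arrays, and miR-106b on 2 of 3 in each group. Their log2 differences were 0.21 for miR-93 (SE 0.42), 0.23 for miR-25 (SE 0.37) and -0.15 for miR-106b (SE 0.41). miR-92b measured 9.27 ± 0.063 in AA and 8.90 ± 1.02 in unaffected skin (log2 difference 0.37, SE 0.50). Like miR-92a, it was highest on unaffected replicate 1 and lowest on unaffected replicate 2. The targets of miR-92a and miR-92b differ by 3 edits, and whether their probes share signal was not tested. By seed, the 5 tested miRNAs with AAAGUGC had 2 higher and 3 lower means in AA (median log2 difference -0.059). The 3 with AUUGCAC all had higher means in AA (median 0.34), and 0 of these 3 passed at an unadjusted p under 0.05. Among all 157 tested miRNAs, 73 had higher means in AA and 7.64% passed at that threshold.

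**Figure D5:**
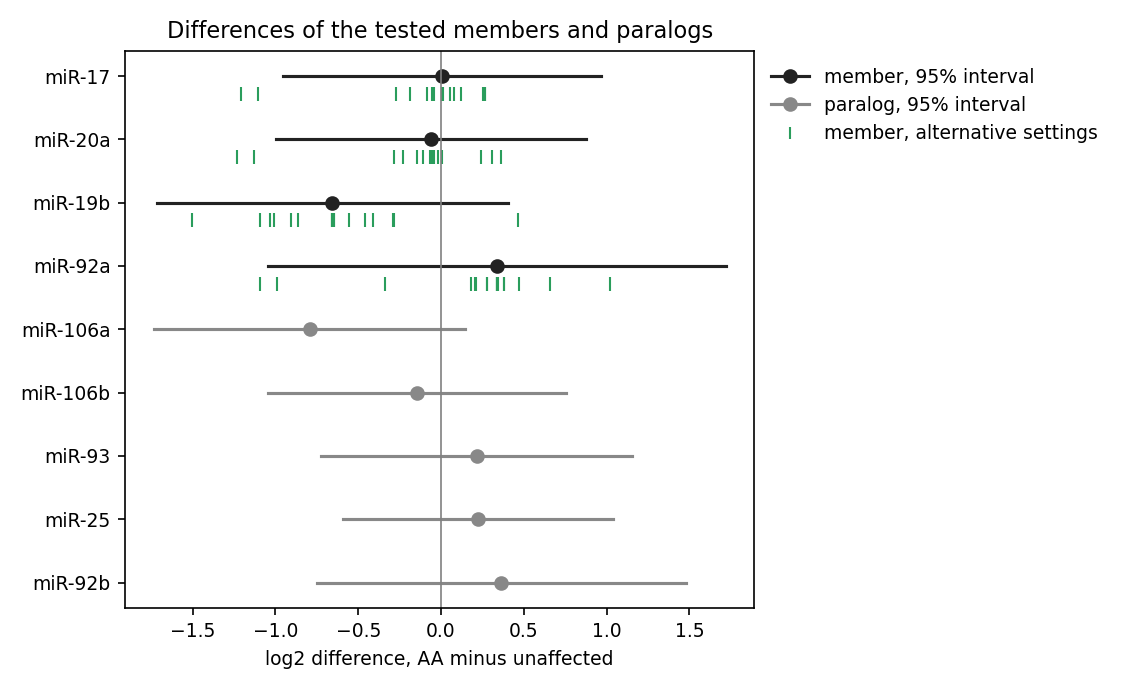
Log2 difference (AA minus unaffected) with its 95% confidence interval from limma for the 4 tested members (black) and the 5 tested paralogs (grey); green ticks are the members' values under the alternative settings. All 9 intervals include 0; the members' point estimates run from -0.66 (miR-19b) to 0.34 (miR-92a).

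Passenger strands are the opposite arms of the hairpins and are mostly degraded, and the probes named for them were at background. The array held no probe for the passenger strand of miR-19b, and the target of miR-19a* matched no RefSeq mature strand. The 5 probes named as passenger strands (miR-17*, miR-18a*, miR-19a*, miR-20a* and miR-92a*), of which 4 matched a RefSeq mature strand exactly, were detected in 0 of 30 probe and array combinations, and 11 of their 150 spots exceeded the threshold. The probe named miR-92a* does not belong to the cluster by its sequence. It matches the X-linked strand miR-92a-2-5p (chrX:52741892-52741913) and differs by 6 edits from miR-92a-1-5p, the opposite strand of the cluster's own hairpin (chr14:115044437-115044459). Both are shown to make the difference visible, with bases 2 to 8 in capitals.
probe miR-92a*: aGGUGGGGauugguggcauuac
cluster strand miR-92a-1-5p: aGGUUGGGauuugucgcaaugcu
The probe thus says nothing of the passenger strand of the chromosome 14 hairpin.

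The authors' deposited table of processed intensities also had unaffected replicate 1 highest and unaffected replicate 2 lowest for miR-92a, with 1889, 1615 and 851 on the AA arrays against 2523, 449 and 1042 on the unaffected arrays. For miR-19b the authors' deposited table held 77.1, 51.4 and 178 against 195, 86.0 and 360. For miR-17 the authors' deposited table held 590, 301 and 513 against 498, 278 and 716. On log2 of these values the differences in limma were -0.042 for miR-17, -0.14 for miR-20a, -1.03 for miR-19b and 0.38 for miR-92a (adjusted p = 0.599 to 0.989).

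The miRNAs whose profile over the 6 arrays was most like each member's were picked as the 3 highest Pearson correlations among the other 156 tested miRNAs, so their values are a description. For miR-17 they were miR-99a (r = 0.85), miR-93 (0.83) and miR-199a-5p (0.78). For miR-20a they were miR-708 (0.88), miR-106b (0.88) and miR-203 (0.84). For miR-19b they were miR-141 (0.93), miR-200a (0.89) and miR-99a (0.85), and miR-141, like miR-19b, was detected on only 3 of the 6 arrays. For miR-92a they were miR-31 (0.94), miR-92b (0.90) and miR-181a (0.90), with Spearman correlations of 0.94, 0.60 and 0.94. For the mean of the 4 tested members, compared with the other 153, they were let-7a (0.78), miR-191 (0.74) and let-7e (0.73). No miRNA of the cluster was among the nearest 3 of another member, while 3 paralogs were: miR-93, miR-106b and miR-92b, each with the seed of the member it followed.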

How the data were processed

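The authors deposited 1 scanner file per array with the raw intensity of each spot, before any background subtraction or normalization; the labels and headers name no image software. Per the labels' protocols, RNA was poly(A)-tailed, tagged, stained with Cy3 and hybridised to 1-colour µParaflo chips. The labels also name biotin-labelled cRNA, and which of these steps applied is not known. The authors' deposited value table (755 rows of linear processed intensity, scaling method not stated) served as an alternative. Its values tracked background-subtracted raw intensity (r = 0.989 or higher per array on the log2 scale, over the probes detected on every array), and its column medians ran from 34.2 to 44.3.

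Background was corrected with normexp (offset 50) in limma 3.58.1 (R 4.3.3). Log2 values of the 5 spots were averaged and arrays quantile-normalized over 707 probes. The 157 miRNAs detected on at least 3 arrays were tested two-sided with lmFit and eBayes, and p-values were adjusted over all 157 by Benjamini-Hochberg, with a threshold of 0.05. The number of arrays limits the precision.

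Groups came from the sample descriptions. The labels do not say that replicate numbers pair mice, so the fit had no block. The members, lists and alternatives were chosen with earlier results of these data known. Named miRNAs are the 6 members, the probes named as their passenger strands, 10 paralogs and the most correlated miRNAs. Nearly identical probes can cross-hybridise.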

Additional observations from a re-analysis of the deposited data

How the results depend on the processing

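Over 18 alternatives, 0 members passed the adjusted threshold in any, and 2 of the members' 71 alternative values passed an unadjusted p of 0.05. The count over all tested miRNAs was 0 to 5 with single arrays left out (5 without unaffected replicate 1, 2 without unaffected replicate 2) and 0 otherwise. The tested list was kept when arrays were left out. For the members' median log2 difference, scaling on all probes (each array's 75th percentile) gave -1.15 and leaving out normalization -1.05, beside -0.95 and -0.84 for the median of the 157 tested miRNAs. It ran from -0.30 to 0.27 with single arrays left out.

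Of the 71 values, 56 kept their sign and 15 did not. Scaling on all probes gave -1.21 for miR-17 (unadjusted p = 0.0250, adjusted 0.0924, in a setting where 39.5% of the tested miRNAs were lower at an unadjusted p under 0.05) and -1.09 for miR-92a, and no normalization gave -1.11 and -0.99. Scaling on the 88 probes that every array detected, again at the 75th percentile, put the median of the 157 at 0.53 and gave 0.24 for miR-20a and 0.47 for miR-19b. The authors' table gave -0.042 for miR-17. The median of the 5 spots gave -0.056 for miR-17 and 0.0086 for miR-20a, and removing the GC trend gave 0.31 for miR-20a. With single arrays left out, values ran from -0.27 to 0.27 for miR-17, -0.29 to 0.36 for miR-20a, -1.10 to -0.29 for miR-19b and -0.34 to 1.02 for miR-92a. The cause was not tested.

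The replicate numbers were not taken to pair the arrays, because the labels do not say that they do. Deviations of same-numbered arrays from their group means correlated at 0.14, -0.10 and -0.12 over the tested miRNAs. Deviations within a group of 3 arrays depend on each other, so these values cannot exclude a pairing. The replicate block left 0 miRNAs past the threshold and gave limma adjusted p = 0.655 for miR-19b. Dim signal over background limits miR-18a, miR-19a and miR-19b. On AA replicate 3 signal was also dim for miR-17, miR-20a and miR-92a, at 1.26, 1.22 and 1.43 times the median empty spot.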
